A study of Mus musculus with 45 samples.

Results

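The macrophage polarisation genes described here are Arg1, Nos2, Mrc1, Cd163, Msr1, Il1b, Spp1, Gpnmb and Fcgr2b. These 9 genes were followed in bulk tumour RNA from the brains of mice modelling glioblastoma, measured on 45 Affymetrix 3' expression arrays. The gene value is the log2 signal of the probe set mapped to the symbol, and where several mapped to it, of the one with the highest mean over the 45 arrays. A named probe set was found for 8 of the 9 genes, out of 17097 genes with one, and Spp1, which encodes the secreted matrix protein osteopontin, was not analysed here. Of the 8, 6 exceeded 4.79, the median of the table, on 3 or more arrays, the condition for entering the tests, as did 11809 of the 17097 genes.

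All tumours carried a p53null background in the CD-1 nude strain, which lacks a functional thymus. Per the series description, retrovirus delivered the receptor to primary mouse astrocyte cultures. The mutant PDGFRA groups, named as in the labels, were Pdgfra C450 ins (5 arrays), D842V (5), E10 del (5), E10 del.v2 (9), E7 del (3) and V544ins (9). They were set against EGFRvIII, the constitutively active truncated epidermal growth factor receptor (8 arrays). The unmutated receptor, Pdgfra WT, gave 1 array, whose values are given without a test. Nothing in the labels says that the arrays of a group came from separate animals or cultures, so p-values measure only the spread between these samples. The title numbers fell into ranges of 1 to 30 (21 arrays) and 41 to 64 (24 arrays), which the labels do not call batches. All EGFRvIII, E7 del and WT arrays had titles of 41 to 64, and all C450 ins, D842V and E10 del arrays had titles of 1 to 30. V544ins and E10 del.v2 each had 6 arrays with titles of 41 to 64 and 3 with titles of 1 to 30.

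Macrophages change their gene programme with the signals around them. Interleukin 4, interleukin 13 and similar signals induce genes of arginine breakdown and of scavenger and mannose receptors, a state called alternative activation, whereas interferon gamma and bacterial products induce nitric oxide synthesis and inflammatory cytokines, called classical activation. Glioblastomas often hold many such cells, both resident microglia and cells that arrive from the blood, and these often show parts of both programmes. Arg1 and Nos2 encode enzymes that compete for arginine. Mrc1, Cd163 and Msr1 encode endocytic receptors, Fcgr2b an inhibitory antibody receptor, Il1b an inflammatory cytokine, and Gpnmb a transmembrane glycoprotein of phagocytes and pigment cells.

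The arrays were similar in overall signal and differed in the cell markers they carried. Array medians ran from 4.66 to 4.85, the correlation between arrays from 0.809 to 0.994, and the excess of 3' over 5' signal of Actb, which grows as RNA degrades, from 0.43 to 1.19 on the log2 scale. All 20 genes of a pan-macrophage list, among them Csf1r, Aif1 and C1qa, passed the filter, and their mean log2 signal lay between 6.41 and 9.41 on mutant arrays and between 7.77 and 10.20 on EGFRvIII arrays. Of 12 lymphocyte markers 1 entered the tests, and Cd3e, Cd3g, Cd8a and Ms4a1 were among those that did not. In bulk RNA, fewer cells of a type and less RNA per cell cannot be told apart. A signal is compared here only between arrays, since probe sets of different genes have no common scale.

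Arg1, the arginase that turns arginine into ornithine and urea, differed most of the 6 tested genes. It was 9.47-fold lower in the mutants than in EGFRvIII as fitted. Of the 36 mutant values 30 lay below the table median, so the fold may understate the difference. The 5 C450 ins arrays had log2 signals of 5.54, 4.09, 3.61, 4.42 and 5.25. The D842V arrays had 3.39, 3.39, 3.05, 2.51 and 6.76, and the E10 del arrays had 3.98, 3.13, 3.37, 6.09 and 3.61. Most of these lay below the table median, and each of these groups held at least 1 array above it. The E7 del arrays had 3.04, 2.48 and 3.52. The 9 E10 del.v2 arrays ran from 2.46 to 4.08 with a median of 2.83, and the 9 V544ins arrays from 2.28 to 7.13 with a median of 2.96. The EGFRvIII arrays had 3.43, 6.55, 3.82, 11.53, 10.97, 7.93, 4.06 and 7.18, and the WT array had 7.16. The groups overlapped: 4 of 8 EGFRvIII arrays exceeded every mutant array, whereas 14 of 36 mutant arrays exceeded the lowest EGFRvIII array. The mean of the 6 mutant groups was 3.69, against 6.93 ± 3.14 (SD, n = 8) in EGFRvIII, a log2 difference of -3.24 ± 0.68 (SE, limma, Benjamini-Hochberg adjusted p = 0.00367).

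**Figure D1:**
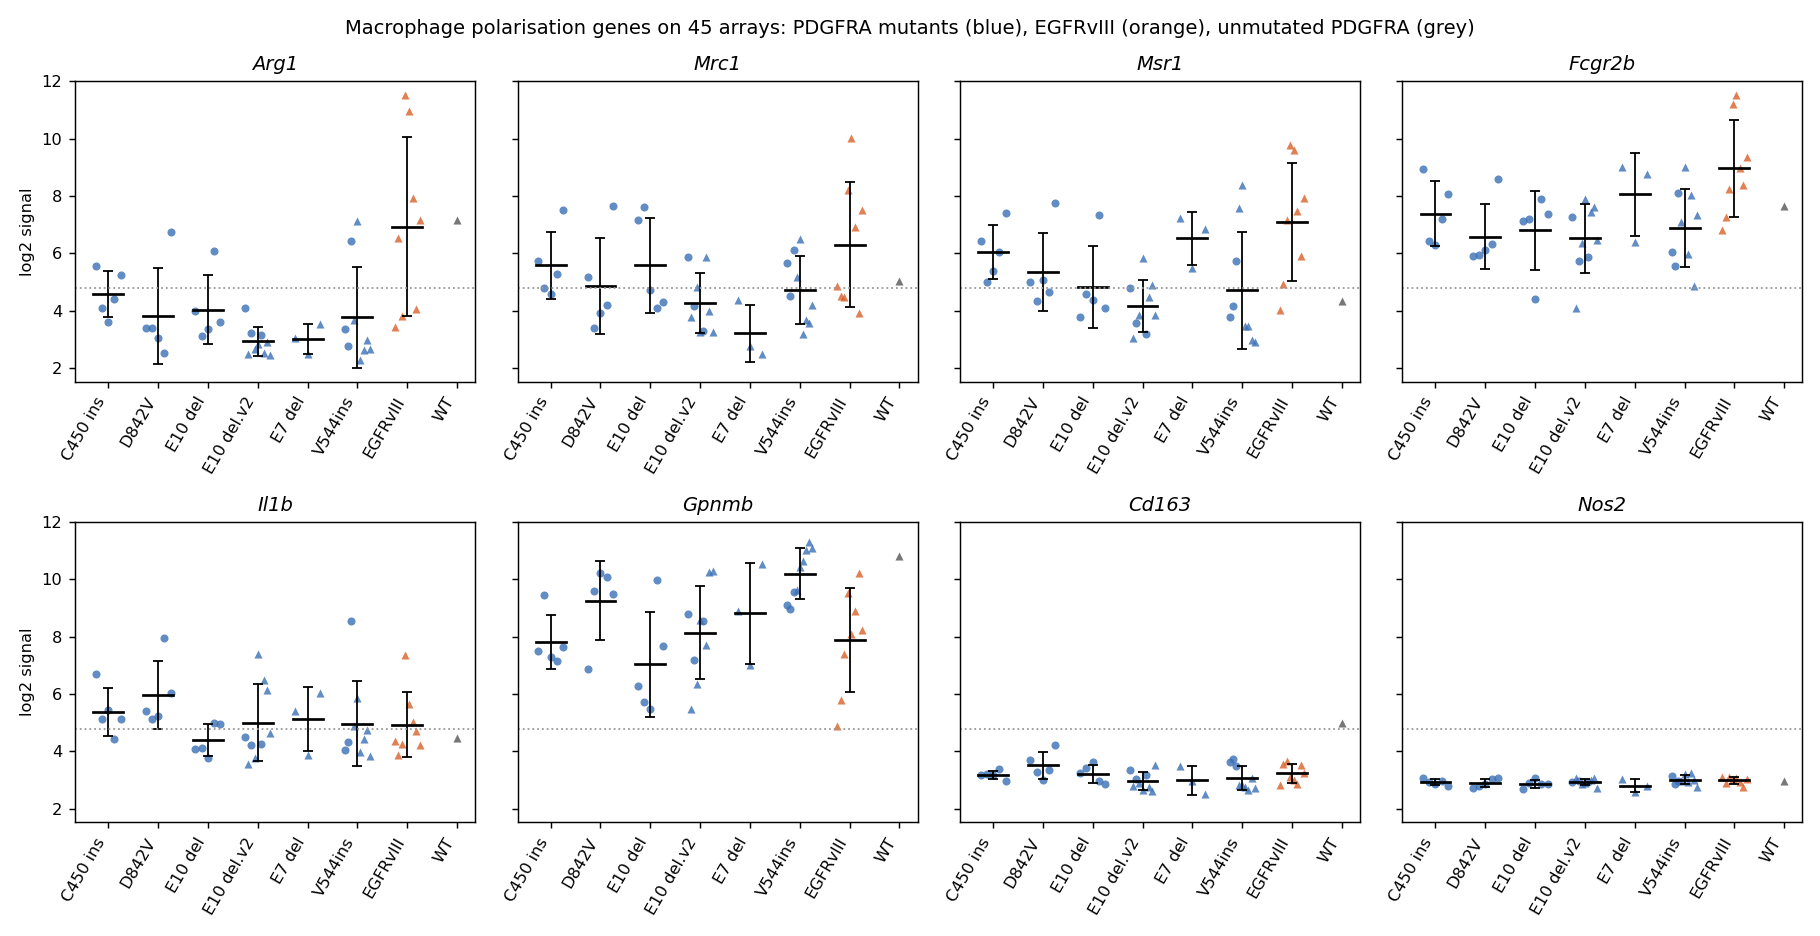
Log2 signal of the 8 macrophage polarisation genes on each of 45 arrays, in panels by gene and by genotype along the horizontal axis. Circles are arrays with titles 1 to 30, triangles those with titles 41 to 64, horizontal lines group means, vertical bars SD, and the dotted line the table median of 4.79. EGFRvIII holds the highest Arg1, Mrc1, Msr1 and Fcgr2b values, V544ins holds the highest Gpnmb values, and nearly all Cd163 and all Nos2 values lie under the dotted line.

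With Arg1, the scavenger receptor gene Msr1 and the antibody receptor gene Fcgr2b were also lower in the mutants than in EGFRvIII, so that 3 of the 6 tested genes passed and all 3 were lower. Of all 11809 genes tested, 8.9% passed in either direction, 5.35% lower and 3.55% higher. The members and the marker lists were chosen with earlier results of these data known. Their counts beside such shares are therefore no independent comparison. Mrc1 had a difference of the same sign that did not pass, and Il1b and Gpnmb had small positive differences that did not pass. None of the 3 passed without EGFRvIII replicates 4 and 5, or without replicates 4, 5 and 6.

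The member genes lie on several chromosomes (GRCm38.p6, from the RefSeq gene table). Arg1 is at chr10:24915207-24927470, Nos2 at chr11:78920787-78960226, Msr1 at chr8:39543232-39642750, Mrc1 at chr2:14229414-14332023 and Il1b at chr2:129364569-129371164. Fcgr2b is at chr1:170960558-170976071, Cd163 at chr6:124304636-124330529 and Gpnmb at chr6:49036518-49058182.

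The bases before the RefSeq start of Mrc1, Fcgr2b and Gpnmb (GRCm38.p6) are shown because they are the proximal promoters of a gene that went with Arg1 without passing, one that was lower in the mutants, and one that did not go with Arg1. RefSeq promoters matched 6 of the 9 genes. Capitals mark matches, on either strand, to GAGGAA, the motif of the myeloid factor PU.1, and to CATGTG, an M-box of the MITF family.
Mrc1, chr2:14229164-14229413, plus strand: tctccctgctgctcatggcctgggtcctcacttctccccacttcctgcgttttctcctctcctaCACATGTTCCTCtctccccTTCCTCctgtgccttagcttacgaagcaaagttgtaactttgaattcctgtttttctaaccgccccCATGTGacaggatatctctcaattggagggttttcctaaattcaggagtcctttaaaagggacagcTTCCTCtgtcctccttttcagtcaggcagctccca
Fcgr2b, chr1:170976072-170976321, minus strand: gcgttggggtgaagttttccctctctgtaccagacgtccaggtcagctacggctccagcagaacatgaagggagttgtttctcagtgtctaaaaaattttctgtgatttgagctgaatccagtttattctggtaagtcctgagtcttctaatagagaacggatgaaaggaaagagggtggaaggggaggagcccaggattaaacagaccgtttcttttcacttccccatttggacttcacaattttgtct
Gpnmb, chr6:49036268-49036517, plus strand: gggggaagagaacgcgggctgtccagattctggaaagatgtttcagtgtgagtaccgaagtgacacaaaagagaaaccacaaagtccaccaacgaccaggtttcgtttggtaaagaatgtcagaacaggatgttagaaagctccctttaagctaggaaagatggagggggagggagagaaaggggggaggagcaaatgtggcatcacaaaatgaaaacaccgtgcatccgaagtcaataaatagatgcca
The Mrc1 window held 3 PU.1 matches and 2 M-box matches, and 1 of each adjoined, so that their capitals run together. The Fcgr2b and Gpnmb windows held neither, nor did those of Cd163 and Il1b, which are not shown. A Spp1 window, also not shown, held 1 PU.1 match. The motifs were searched after the expression results were known. GAGGAA occurred in 23.3% and CATGTG in 12.3% of 32851 mouse promoter windows of the same length. No match to AP-1 (TGANTCA), C/EBP (TTGCNNAA), the E-box CACGTG, the STAT6 site or the interferon-stimulated element TTCNNTTTC lay in any of the 3 windows shown. They occurred in 6.75%, 9.56%, 6.02%, 5.85% and 7.13% of all windows. A match is a description of the letters only.

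Nos2, the inducible nitric oxide synthase that makes nitric oxide from arginine, stayed between 2.59 and 3.25 on all 45 arrays. No array exceeded the table median, so the gene did not enter the tests. Its group means ran from 2.81 ± 0.23 (SD, n = 3) in E7 del to 3.01 ± 0.16 (SD, n = 9) in V544ins, against 2.99 ± 0.12 (SD, n = 8) in EGFRvIII. Without the filter the log2 difference was -0.09 ± 0.057 (SE, limma, adjusted p = 0.342). At these signals no difference in Nos2 was detectable. The EGFRvIII arrays with the highest Arg1, replicates 4 and 5, had Nos2 values of 3.04 and 3.08, and the 3 other EGFRvIII arrays with Arg1 above the table median had 2.90, 2.92 and 3.02.

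Other genes of arginine and polyamine metabolism were taken from a list of 14, of which 13 passed the filter. In the mutants 2 of the 13 were lower, beside 5.35% of all genes, and none was higher. The median log2 difference of the list was -0.21, beside -0.02 over all genes tested. Gch1, which makes the cofactor that nitric oxide synthases need, had a difference of -1.11 ± 0.29 (SE, limma, adjusted p = 0.0172). Sms, the spermine synthase, had -0.69 ± 0.19 (SE, adjusted p = 0.0179). Odc1, the ornithine decarboxylase that draws on the product of arginase, had -0.55 (adjusted p = 0.102), and Arg2, the mitochondrial arginase, had -0.09 (adjusted p = 0.895).

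Msr1, the class A scavenger receptor that takes up modified lipoproteins, was 3.55-fold lower in the mutants than in EGFRvIII. Its values were 6.43, 5.004, 5.38, 6.03 and 7.41 in C450 ins, 4.99, 4.32, 5.07, 4.66 and 7.74 in D842V, and 3.78, 4.56, 4.37, 7.33 and 4.08 in E10 del. They were 7.23, 5.49 and 6.85 in E7 del. In E10 del.v2 they ran from 3.05 to 5.83 with a median of 3.85, and in V544ins from 2.91 to 8.38 with a median of 3.76. The V544ins values thus spanned the whole range of the mutants, and E7 del lay close to EGFRvIII. The EGFRvIII arrays had 4.02, 4.92, 7.16, 9.77, 9.60, 7.49, 5.89 and 7.94, and the WT array had 4.33. Of the EGFRvIII arrays 2 exceeded every mutant array. The mutant mean was 5.27, against 7.10 ± 2.07 (SD, n = 8) in EGFRvIII, a log2 difference of -1.83 ± 0.60 (SE, limma, adjusted p = 0.0490). This call lay at the threshold and held in 11 of 44 fits that each left out 1 array, with differences from -2.27 to -1.45 (adjusted p 0.00956 to 0.224). All 4 probe sets of Msr1 had negative differences, from -1.83 to -1.10.

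Fcgr2b, the Fc receptor that inhibits activation by immune complexes, was 3.82-fold lower in the mutants than in EGFRvIII. Its values were 8.94, 6.44, 6.28, 7.18 and 8.08 in C450 ins and 5.90, 5.94, 6.13, 6.34 and 8.58 in D842V. They were 7.14, 7.21, 4.39, 7.89 and 7.36 in E10 del and 9.01, 6.39 and 8.75 in E7 del. The E10 del.v2 arrays ran from 4.10 to 7.89 with a median of 6.46, and the V544ins arrays from 4.85 to 9.02 with a median of 7.09. All but 2 of the 45 arrays thus lay above the table median. The EGFRvIII arrays had 6.80, 7.27, 8.23, 11.20, 11.50, 8.98, 8.39 and 9.37, and the WT array had 7.64. Of the EGFRvIII arrays 3 exceeded every mutant array, and 19 of 36 mutant arrays exceeded the lowest EGFRvIII array. The mutant mean was 7.04, against 8.97 ± 1.69 (SD, n = 8) in EGFRvIII, a log2 difference of -1.93 ± 0.52 (SE, limma, adjusted p = 0.0185). All 4 probe sets of Fcgr2b had negative differences, from -1.93 to -1.30, and the other 3 correlated with the one used at r of 0.94 to 0.99 over 45 arrays. Fcgr2b shares much sequence with Fcgr3, and whether its probe sets also detect Fcgr3 RNA was not tested.

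Of 7 symbols of an Fc receptor list 6 passed the filter. In the mutants 2 of the 6 were lower, beside 5.35% of all genes, with a list median of -0.68. Fcgr4, an activating receptor, had a log2 difference of -1.67 ± 0.41 (SE, limma, adjusted p = 0.0101), and Fcgr3, another activating receptor, had -0.91 ± 0.27 (SE, adjusted p = 0.0293). Fcer1g, the signalling chain these receptors share, had -0.59 (adjusted p = 0.171). Of 9 scavenger receptor genes tested beside the members, 1 was lower in the mutants, Cd5l, a secreted protein of macrophages that contains scavenger receptor domains (-1.36 ± 0.30, SE, adjusted p = 0.00566). Stab1 had -0.47 and Cxcl16 had -0.42, and neither passed (adjusted p = 0.389 and 0.405).

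Mrc1, the macrophage mannose receptor, averaged 4.70 over the mutant groups and 6.30 ± 2.19 (SD, n = 8) in EGFRvIII. The log2 difference of -1.60 ± 0.58 (SE, limma, adjusted p = 0.0713) did not pass, and its 95% interval ran from -2.77 to -0.43. The EGFRvIII arrays had 4.85, 4.51, 4.47, 8.21, 10.02, 6.93, 3.92 and 7.51. The mutant arrays ran from 2.49 to 7.64 with a median of 4.44. Of the EGFRvIII arrays 2 exceeded every mutant array, while 25 of 36 mutant arrays exceeded the lowest of them. E7 del had 4.35, 2.78 and 2.49, of which 2.49 and 2.78 were the lowest of all arrays, and the highest mutant values were 7.64 in D842V, 7.60 and 7.15 in E10 del and 7.52 in C450 ins. The WT array had 5.05.

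Cd163, the scavenger receptor for haemoglobin bound to haptoglobin, lay between 2.50 and 4.22 on the 36 mutant arrays and between 2.82 and 3.66 on the EGFRvIII arrays. The WT array had 4.98, the highest of all 45 and the only one above the table median. The gene therefore did not enter the tests. Without the filter the log2 difference between the mutants and EGFRvIII was -0.07 ± 0.14 (SE, limma, adjusted p = 0.785). The EGFRvIII arrays with the highest Mrc1, replicates 5 and 4, had Cd163 values of 2.99 and 3.12.

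Il1b, the secreted cytokine that starts fever and endothelial activation, did not separate the genotypes. It averaged 5.13 over the mutant groups and 4.93 ± 1.13 (SD, n = 8) in EGFRvIII, a log2 difference of 0.19 ± 0.46 (SE, limma, adjusted p = 0.807) with a 95% interval from -0.74 to 1.13. The mutant arrays ran from 3.56 to 8.55 with a median of 4.92. The EGFRvIII arrays had 4.35, 3.86, 4.27, 7.36, 5.67, 5.04, 4.70 and 4.23. The highest mutant values were 8.55 in V544ins replicate 3 and 7.97 in D842V replicate 4, both above the highest EGFRvIII value. Of 8 other tested genes of the interleukin 1 system 1 was lower in the mutants, beside 5.35% of all genes. It was Casp1, the protease that releases mature interleukin 1 beta (-1.34 ± 0.40, SE, limma, adjusted p = 0.0299). Myd88, the adaptor of interleukin 1 receptors, had -0.62 (adjusted p = 0.0808), and Il1r2, the decoy receptor, had -0.48 (adjusted p = 0.193).

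Gpnmb was above the table median on all 45 arrays, and its pattern differed from that of Arg1. It averaged 8.54 over the mutant groups and 7.87 ± 1.81 (SD, n = 8) in EGFRvIII, a log2 difference of 0.66 ± 0.57 (SE, limma, adjusted p = 0.449) with a 95% interval from -0.49 to 1.82. The V544ins arrays had 9.11, 8.96, 9.57, 9.62, 10.42, 10.62, 11.02, 11.30 and 11.08, all of them above 6 of the 8 EGFRvIII arrays. The D842V arrays had 6.87, 9.59, 10.23, 10.09 and 9.49, and the C450 ins arrays had 7.48, 9.45, 7.30, 7.16 and 7.64. E10 del had 6.27, 5.73, 5.49, 9.96 and 7.69, E7 del had 8.88, 7.02 and 10.53, and E10 del.v2 ran from 5.48 to 10.28 with a median of 8.55. The lowest values lay in EGFRvIII, E10 del and E10 del.v2. The EGFRvIII arrays had 4.88, 5.77, 7.38, 9.52, 8.09, 8.89, 10.23 and 8.23, and the WT array had 10.82.

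Between single genotypes, Gpnmb was higher in V544ins than in EGFRvIII by 2.32 ± 0.70 on the log2 scale (SE, limma, adjusted p = 0.0494), a 4.98-fold difference, in a comparison in which 4.06% of all genes passed. The group means were 10.19 ± 0.89 (SD, n = 9) in V544ins and 7.87 ± 1.81 (SD, n = 8) in EGFRvIII. This call also lay at the threshold. Within titles 41 to 64 the difference was 2.80 and did not pass (adjusted p = 0.111), and with 1 array left out at a time it held in 11 of 44 fits, with differences from 1.89 to 2.65 (adjusted p 0.0207 to 0.100).

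Arg1 was lower than in EGFRvIII in 3 of the 6 mutants when each was tested alone. The log2 difference was -4.01 ± 0.84 in E10 del.v2 (SE, limma, adjusted p = 0.00658), -3.17 ± 0.84 in V544ins (adjusted p = 0.0241) and -2.90 ± 0.98 in E10 del (adjusted p = 0.0385). It was -3.92 ± 1.16 in E7 del, -3.11 ± 0.98 in D842V and -2.35 ± 0.98 in C450 ins, which did not pass (adjusted p = 0.108, 0.0691 and 0.396). The 9 E10 del.v2 values of Arg1 all lay below the table median, so that difference too may be understated. These comparisons share the 8 EGFRvIII arrays. Fcgr2b was lower in E10 del.v2 (-2.45 ± 0.64, adjusted p = 0.0219) and in E10 del (-2.17 ± 0.75, adjusted p = 0.0420), and Msr1 was lower in E10 del.v2 (-2.94 ± 0.74, adjusted p = 0.0177). With Gpnmb in V544ins these made 7 calls among the 36 combinations of the 6 genes and the 6 mutants, 19.4%, where 5.53% of such combinations passed over all genes. Because the members were chosen with earlier results known, the excess is no independent result. Over all 21 pairs of genotypes 1.88% passed. The share of all genes passing against EGFRvIII was 0.0254% for C450 ins, 3.14% for D842V, 18.4% for E10 del, 7.06% for E10 del.v2, 0.5% for E7 del and 4.06% for V544ins. None of the 7 calls held without EGFRvIII replicates 4 and 5. The log2 difference of Gpnmb in V544ins was then larger, 2.63 (limma, adjusted p = 0.0829), and those of Arg1 were smaller, -2.57 in E10 del.v2, -1.73 in V544ins and -1.46 in E10 del (adjusted p = 0.104, 0.244 and 0.211). Each of the E10 del calls, Arg1 and Fcgr2b, held in 37 of 44 fits that left out 1 array. They failed without E10 del replicate 1, 2 or 3, or without EGFRvIII replicate 4, 5, 6 or 8. With neuron and myelinating oligodendrocyte markers as a covariate they were -2.09 and -1.49 and did not pass (limma, adjusted p = 0.369 and 0.405).

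Among the mutants no macrophage polarisation gene passed. None of the 6 genes passed the F test for differences among the 6 mutants (limma), where 68 genes, 0.576% of all, did. The smallest p belonged to Gpnmb (adjusted p = 0.127, unadjusted p = 0.00444), and the others had adjusted p from 0.396 to 0.723. None of the 90 combinations of the 6 genes with the 15 pairs of mutants passed by limma, where 0.426% of all did, and 9 of the 90 had an unadjusted p under 0.05.

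In order of group mean over the 7 genotypes with replicates, Arg1 ran from EGFRvIII through C450 ins, E10 del, D842V, V544ins and E7 del to E10 del.v2. Mrc1 had the same first 5 groups in the same order, followed by E10 del.v2 and E7 del. For Msr1 and Fcgr2b the order began with EGFRvIII, E7 del and C450 ins and ended with E10 del.v2. Il1b ran from D842V and C450 ins down to EGFRvIII and E10 del, and Gpnmb from V544ins and D842V down to C450 ins and E10 del. None of the 36 differences between neighbours in these orders passed, so no neighbours were told apart by this test. The widest gap between neighbours was in Arg1, where C450 ins minus EGFRvIII was -2.35 ± 0.98 (SE, limma, adjusted p = 0.396, unadjusted p = 0.0214), in the comparison in which 0.0254% of all genes passed.

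The WT array had more Arg1, at 7.16, than any of the 36 mutant arrays, of which the highest had 7.13, and it exceeded 4 of the 8 EGFRvIII arrays. It also exceeded 33 of 36 mutant arrays and all 8 EGFRvIII arrays for Gpnmb. For Msr1, at 4.33, it exceeded 14 mutant arrays and 1 EGFRvIII array. This array therefore had Arg1 above the table median with Msr1 below it, unlike EGFRvIII replicates 4, 5, 6 and 8, which had high values of both. EGFRvIII replicate 2 came nearer to it, with 6.55 for Arg1 and 4.92 for Msr1. The microglia list had a mean of 8.52 on the WT array, the highest of all 45, against at most 8.41 on a mutant array, and its part in these values was not tested. With 1 array there is no replicate check.

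The 8 EGFRvIII arrays fell far apart in these genes. Replicates 4 and 5 held ranks 1 and 2 of all 45 arrays for Arg1 and Msr1, ranks 2 and 1 for Mrc1 and Fcgr2b, and ranks 4 and 11 for Il1b. For Gpnmb they held ranks 17 and 28. Replicates 6 and 8 held ranks 3 and 4 for Arg1. Replicate 2 held rank 8 for Arg1, at 6.55, but ranks 23, 22 and 41 for Msr1, Fcgr2b and Il1b, and rank 32 for the mean of the monocyte-derived macrophage list. Replicates 1, 3 and 7 had Arg1 values of 3.43, 3.82 and 4.06, inside the range of most mutants. Replicate 7 had the highest Gpnmb of the group, 10.23, with the lowest Mrc1, 3.92.

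**Figure D2:**
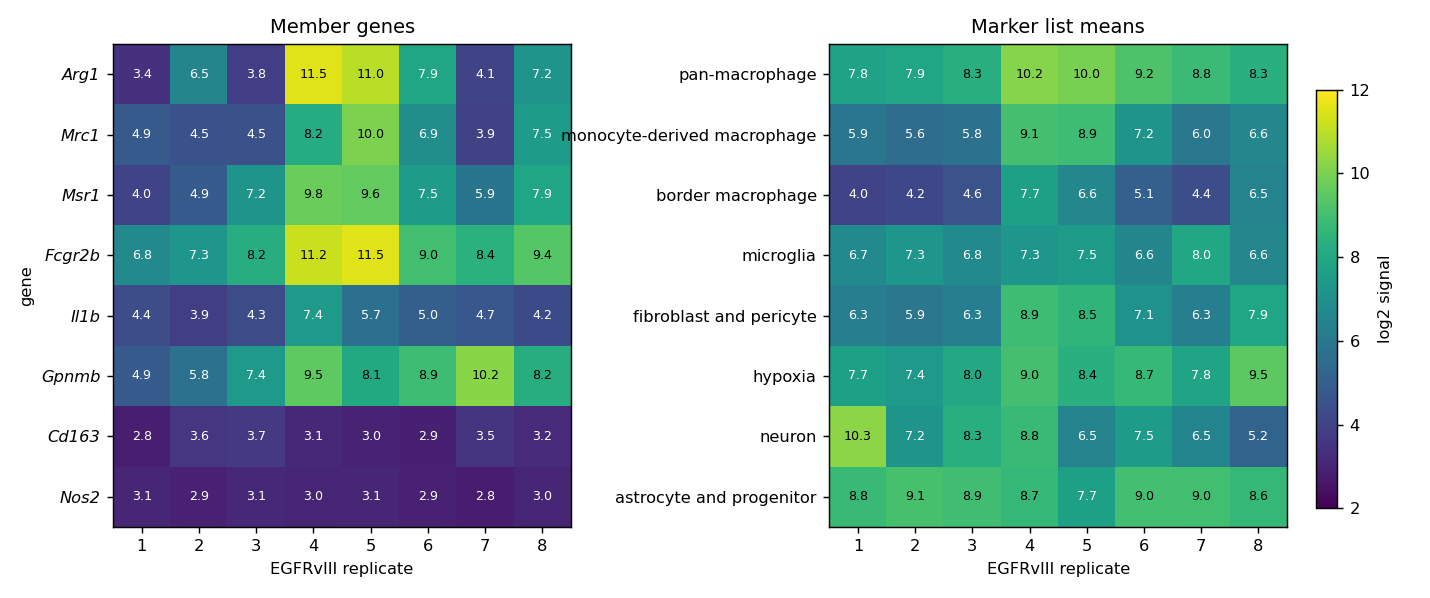
Log2 signal of the 8 genes (left) and mean log2 signal of 8 marker lists (right) on the 8 EGFRvIII arrays, with replicate number along the horizontal axis and colour from 2 to 12. Replicates 4 and 5 have the brightest cells for Arg1, Fcgr2b and the pan-macrophage and monocyte-derived lists, and replicate 7 has the brightest for Gpnmb and the microglia list.

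Markers of other cells moved with these values. The monocyte-derived macrophage list had means of 9.05 and 8.88 on replicates 4 and 5, above all other arrays, of which the mutants ran from 4.88 to 7.88. Of its 11 symbols 6 passed the filter, and Ccr2, Ly6c2, F10 and Thbs1 were among those that did not enter the tests. The pan-macrophage list was also highest on these arrays, at 10.20 and 9.95. The fibroblast and pericyte list was 8.89 and 8.55 on them and 5.95 to 7.92 on the other 6 EGFRvIII arrays, with up to 9.59 on a mutant array. The microglia list did not single them out: at 7.26 and 7.46 they held ranks 18 and 16 of 45. The 3' over 5' excess of Actb was 0.48 and 0.64 on them, inside the range of the other arrays.

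No call of a member gene held with EGFRvIII replicates 4 and 5 both left out. Replicates 4 and 5 held ranks 1 and 2, in either order, for Arg1, Msr1, Mrc1 and Fcgr2b. A smaller difference without them was therefore built in and is no independent check. Without EGFRvIII replicates 4, 5 and 6 the log2 difference between the mutants and EGFRvIII was -1.32 for Arg1 (limma, adjusted p = 0.489), -0.98 for Fcgr2b (adjusted p = 0.647), -0.72 for Msr1 (adjusted p = 0.790) and -0.35 for Mrc1 (adjusted p = 0.887). Without replicates 4 and 5 alone, a setting chosen after the data were seen, it was -1.80 for Arg1 (adjusted p = 0.155). Leaving out 1 array at a time, Arg1 passed in 44 of 44 fits, with differences from -3.74 to -2.59, and Fcgr2b in 42 of 44, failing without EGFRvIII replicate 4 or 5. Mrc1 passed in 5 of 44. Without replicate 4 or without replicate 5, Arg1 was the 1 member called.

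Taking the mean of the pan-macrophage list as a covariate, the log2 difference of Arg1 was -2.59 (limma, adjusted p = 0.0164), that of Fcgr2b -1.25 (adjusted p = 0.0750) and that of Msr1 -1.23 (adjusted p = 0.207). Gpnmb then had 1.45 ± 0.41 and passed (SE, adjusted p = 0.0430). Titles 41 to 64 hold no C450 ins, D842V or E10 del array, so the mutants there were E7 del, E10 del.v2 and V544ins. Within titles 41 to 64, Arg1 had a log2 difference of -3.86 ± 0.90 (SE, limma) and passed (adjusted p = 0.0468). Fcgr2b, at -1.72, and Msr1, at -1.89, did not pass there (limma, adjusted p = 0.174 and 0.216). With the title range as a block Arg1 had -3.70 (adjusted p = 0.0170), Fcgr2b -1.68 (adjusted p = 0.170) and Msr1 -1.61 (adjusted p = 0.270). With the neuron and myelinating oligodendrocyte markers of host brain as a covariate Arg1 had -2.79 (adjusted p = 0.0176), Fcgr2b -1.55 (adjusted p = 0.0796) and Msr1 -1.34 (adjusted p = 0.188).

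**Figure D3:**
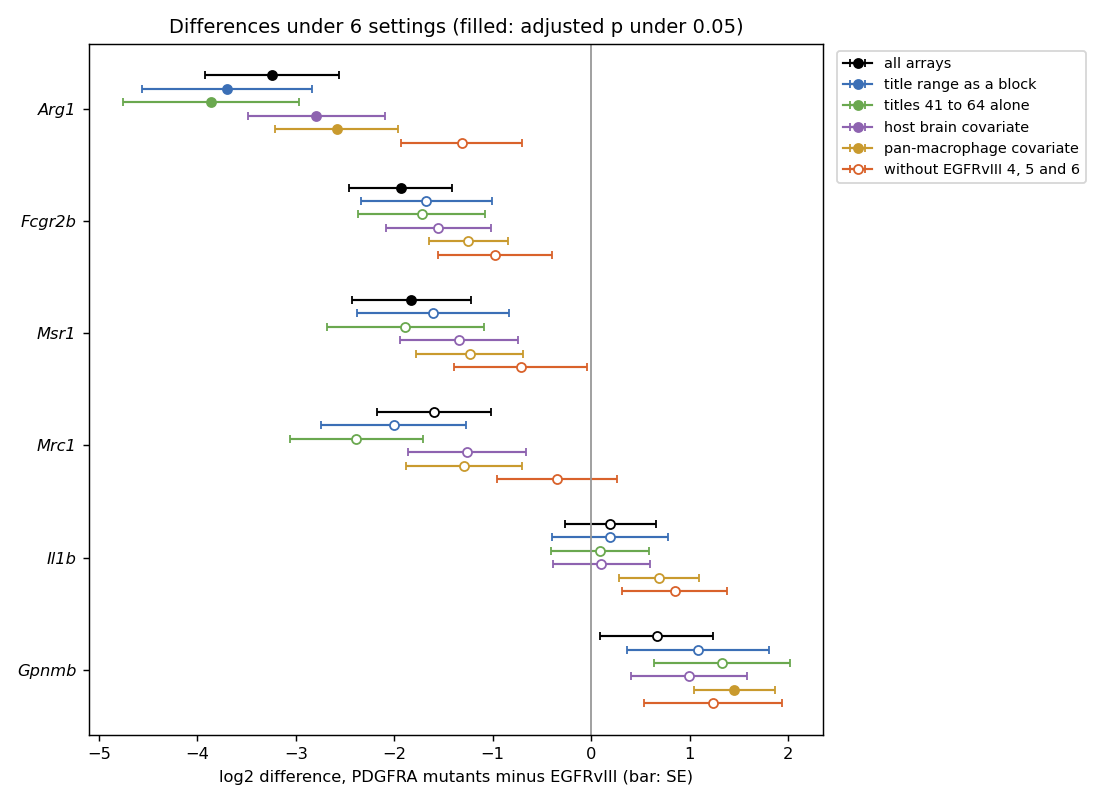
Log2 difference of the mutants minus EGFRvIII for 6 genes (rows) under 6 settings (colours), with bars for the standard error and filled points where the adjusted p was under 0.05. Arg1 stays left of -2 in every setting drawn except the one without EGFRvIII replicates 4, 5 and 6, and Gpnmb lies right of 0 throughout.

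Between the title ranges, within V544ins and E10 del.v2, none of the 6 genes passed by limma, where 1.02% of all genes did. The difference of titles 41 to 64 minus 1 to 30 ran from -0.74 ± 0.87 for Arg1 (SE, adjusted p = 0.624) to 0.69 ± 0.72 for Gpnmb (adjusted p = 0.574).

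Arg1 exceeded the table median on 6 of 36 mutant arrays, namely V544ins replicates 5 and 3, D842V replicate 5, E10 del replicate 4 and C450 ins replicates 1 and 5. Msr1, Fcgr2b, Il1b and Gpnmb exceeded it on all 6, and Mrc1 on 5. On the other 30 mutant arrays Msr1 exceeded it on 11, Mrc1 on 9, Il1b on 13, Fcgr2b on 28 and Gpnmb on 30. Gpnmb exceeded it on all 45 arrays and Fcgr2b on 43, so their counts cannot tell whether they marked the 6 arrays. Il1b did not exceed it on EGFRvIII replicates 8 and 2, at 4.23 and 3.86, whose Arg1 did. The monocyte-derived list had means from 6.63 to 7.88 on the 6 arrays. On D842V replicate 5 the neutrophil list had a mean of 9.20, against 6.86 on the next highest of all arrays.

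Over all 45 arrays Arg1, Msr1, Fcgr2b and Mrc1 went together, whereas Gpnmb did not go with Arg1. Arg1 correlated with Msr1 at r = 0.75, with Fcgr2b at 0.75 and with Mrc1 at 0.73, and Msr1 with Fcgr2b at 0.81. Within the 36 mutant arrays the same 4 pairs had 0.70, 0.55, 0.59 and 0.69, and without the 2 arrays farthest from the median of the first gene 0.63, 0.60, 0.60 and 0.73. Gpnmb correlated with Arg1 at 0.07, with Mrc1 at -0.21, with Msr1 at 0.09 and with Fcgr2b at 0.21. After subtraction of each genotype's mean it had 0.47 with Fcgr2b, and within the 8 EGFRvIII arrays it had 0.63 with Msr1, 0.62 with Fcgr2b and 0.39 with Arg1. The 45 arrays share preparation, normalisation and tumour make-up, and these values describe them and carry no test.

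Against the marker lists, Arg1 correlated with the monocyte-derived macrophage list at 0.80, the border macrophage list at 0.77 and the microglia list at -0.13. Without the 2 arrays farthest from the median of Arg1 these were 0.64, 0.64 and -0.22. Arg1 also correlated with the alternative activation list at 0.80, polarising and colony stimulating ligands at 0.73 and fibroblast and pericyte markers at 0.61. With the classical activation list it had 0.51. Without the 2 farthest arrays the alternative and classical values of Arg1 were 0.63 and 0.45. Chil3 is in both the alternative activation and the monocyte-derived list. The alternative and classical values were 0.62 and 0.27 for Mrc1, 0.64 and 0.58 for Msr1, and 0.72 and 0.69 for Fcgr2b. They were 0.46 and 0.64 for Il1b and 0.20 and 0.45 for Gpnmb. Mrc1 correlated with border macrophage markers at 0.82 and with fibroblast and pericyte markers at 0.78. Msr1 correlated with the hypoxia list at 0.82, the monocyte-derived list at 0.82 and the border macrophage list at 0.81. Arg1 had 0.60 with the hypoxia list, and Fcgr2b had 0.79 with the Fc receptor list. Gpnmb correlated with the lysosome and lipid-associated list at 0.63, the interleukin 1 system at 0.62 and the pan-macrophage list at 0.60. It had 0.55 with the microglia list and 0.49 with the astrocyte and progenitor list, but 0.09 with the monocyte-derived list. Which cells gave its signal was not tested. After subtraction of each genotype's mean, Arg1 had 0.85 with the monocyte-derived list. Gpnmb then had 0.23 with the monocyte-derived list, 0.60 with the microglia list and 0.50 with the astrocyte and progenitor list.

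**Figure D4:**
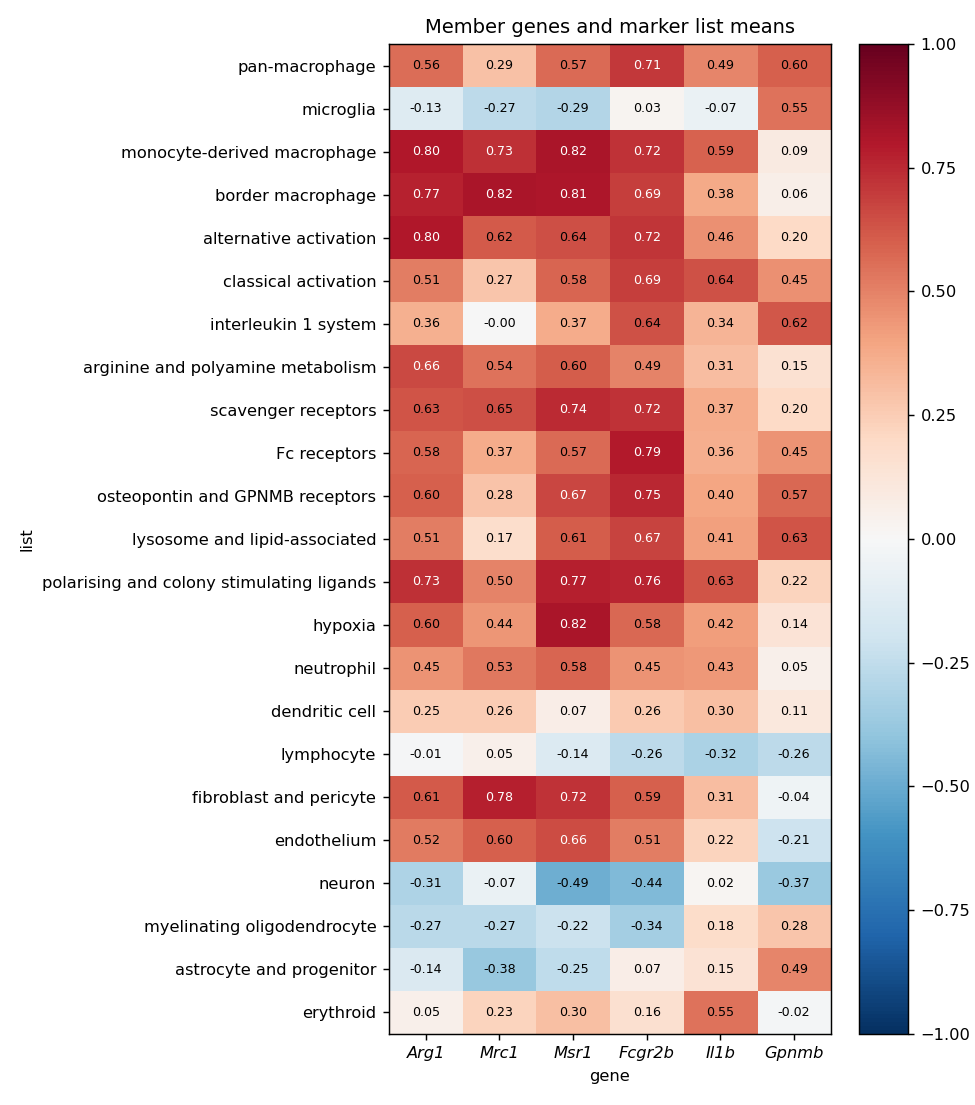
Pearson correlation, over 45 arrays, of the log2 signal of 6 genes (columns) with the mean of 23 marker lists (rows), none of which holds a member gene. Arg1 is darkest for the monocyte-derived macrophage and alternative activation lists (0.80 each), Msr1 for the monocyte-derived and hypoxia lists, Mrc1 for the border macrophage list and Fcgr2b for the Fc receptor list. The Gpnmb column is near 0 for the monocyte-derived list and positive for the microglia list and the astrocyte and progenitor list.

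**Figure D5:**
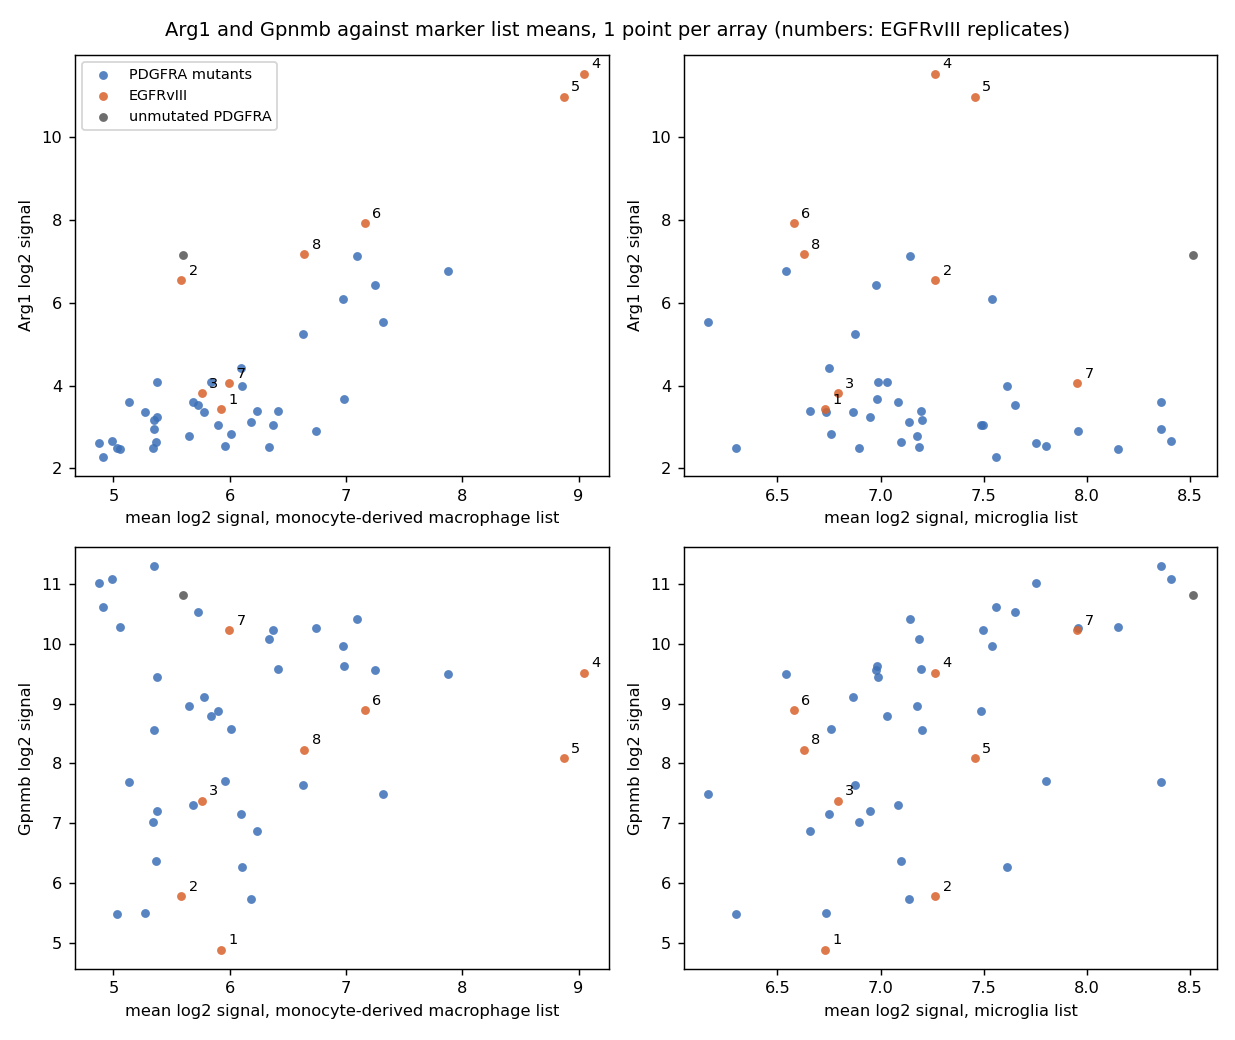
Arg1 (top) and Gpnmb (bottom) log2 signal against the mean log2 signal of the monocyte-derived macrophage (left) and microglia (right) lists, 1 point per array, with EGFRvIII replicates numbered. The EGFRvIII arrays 4 and 5 lie at the upper right of the Arg1 panel for the monocyte-derived list, and high Gpnmb values lie with high microglia list means.

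The genes whose signals were most like each member, by Pearson correlation over 45 arrays among the named genes tested, differed from member to member. They were Hal (0.89), Clec4n (0.86) and Bvht (0.85) for Arg1, Lilrb4a (0.93), Ccr1 (0.90) and Emilin2 (0.88) for Msr1, and Tspo (0.88), Fn1 (0.86) and Csf2rb (0.85) for Fcgr2b. Hal encodes histidine ammonia lyase and Clec4n the lectin receptor dectin-2. For Mrc1 they were Colec12 (0.81), Nnmt (0.81) and Col14a1 (0.80), the last a fibrillar-associated collagen. For Il1b they were Ccl2 (0.70), Cd14 (0.69) and Atf3 (0.67), and for Gpnmb Irf7 (0.81), Usp18 (0.80) and Xaf1 (0.80), which are genes induced by interferon. Without EGFRvIII replicates 4, 5 and 6 the values for Arg1 were 0.74, 0.70 and 0.63, and those for Gpnmb were 0.81 in all 3 genes.

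Other genes of macrophage programmes mostly did not pass. Of 9 tested genes of alternative activation besides the members, 2 were lower in the mutants, beside 5.35% of all genes, and none was higher. The list median was -0.55, beside -0.02 over all genes. Il4ra, the interleukin 4 receptor chain, had a log2 difference of -0.55 ± 0.17 (SE, limma, adjusted p = 0.0339), Klf4, a transcription factor, had -1.38 ± 0.44 (adjusted p = 0.0424), and Tgm2, a transglutaminase, had -1.08 and did not pass (adjusted p = 0.0621). The alternative activation genes Retnla, Clec10a, Mgl2 and Il10 were among 9 that did not pass the filter. None of 10 genes of classical activation passed (limma, 4 with an unadjusted p under 0.05), with a list median of -0.66, and Tnf and Il12b were among 7 that did not enter the tests. The ligands Il4, Il13, Ifng and Csf2 did not pass the filter either.

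Of the lists for cell types, none of the 20 pan-macrophage genes passed by limma, with a list median of -0.47 and 6 unadjusted p under 0.05, and none of 9 microglia genes, with a median of 0.19 and 0 unadjusted p under 0.05. Over all genes tested 5.35% were lower in the mutants and 8.9% passed in either direction. Of 6 monocyte-derived macrophage genes 1 was lower, Emilin2 (-1.77 ± 0.44, SE, limma, adjusted p = 0.0110), and the list median was -0.76. None of 9 border macrophage genes passed (limma, 2 unadjusted p under 0.05), with a median of -0.56. Of 16 lysosome and lipid-associated genes 1 was lower, Clec7a, the receptor dectin-1 (-1.67 ± 0.51, SE, adjusted p = 0.0339), with a median of -0.27. None of 8 receptors for osteopontin and GPNMB passed (limma, 2 unadjusted p under 0.05), with a median of -0.51, and Cd44 had -0.84 (adjusted p = 0.219). Of 13 neuron genes 3 were higher in the mutants, Map2, Snap91 and Tubb3, beside 3.55% of all genes, with a median of 0.85. None of 11 myelinating oligodendrocyte genes passed, with a median of 0.75. Fn1 was the 1 lower of 8 fibroblast and pericyte genes, and Nes the 1 lower of 11 astrocyte and progenitor genes. Whether host brain content gave the member differences was not tested.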

How the data were processed

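RNA of 45 mouse brain tumour samples, 1 array each, was labelled from 100 ng of total RNA per the labels. The deposited table gives, for 45141 probe sets, log2 signals. The authors used RMA, per the submitters' processing notes, and its version and settings are not given in the sources used here. Values were used as deposited. Replicate numbers only name the arrays of a group: they follow the order of the samples, and the labels give none. A probe set was named by its single gene symbol in the platform annotation (28898 with 1 symbol, 551 with several, 15692 with none). A gene entered the tests if it exceeded 4.79, the median of the table, on 3 or more arrays.

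The 8 genotypes were fitted together in limma 3.58.1 (R 4.3.3). The average of the 6 mutant group means, unweighted, was set against EGFRvIII. P-values were Benjamini-Hochberg adjusted over all 11809 genes, and those under 0.05 were called. The number of arrays limits the precision. Correlations describe the arrays and were not tested. Genes named are the members, the 3 genes most like each, and up to 3 genes with the smallest p of a list, plus Arg2 and Cd44, chosen after their values were seen. The members and lists were chosen with earlier results of these data known. Alternatives were filters, probe set means, scalings, array weights, covariates, title ranges and left-out arrays.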

Additional observations from a re-analysis of the deposited data

Results flagged for a closer look

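Of 48 groups tested for 1 array standing apart from the rest of its genotype (groups of 4 to 10 arrays), 10 were marked, and chance marks about 1 in 20. The genes share arrays and several go together, so the marks are not independent and cannot be set against that share. D842V replicate 5 stood above the other D842V arrays for Arg1 (6.76, next 3.39), Msr1 (7.74, next 5.07) and Fcgr2b (8.58, next 6.34). E10 del replicate 4 stood above its group for Arg1 (6.09, next 3.98) and Msr1 (7.33, next 4.56), and E10 del replicate 3 stood below it for Fcgr2b (4.39, next 7.14). Arg1 was 4.08 in E10 del.v2 replicate 1, with 3.23 next. Il1b was 8.55 in V544ins replicate 3, with 5.87 next. Gpnmb was 9.45 in C450 ins replicate 2, with 7.64 next, and 6.87 in D842V replicate 1, the lowest of that group, with 9.49 next. On D842V replicate 5 the monocyte-derived list had a mean of 7.88, the fibroblast and pericyte list 9.37 and the neutrophil list 9.20, the last the highest of all 45 arrays (3.25 to 4.21 on the other D842V arrays), and their part in its values was not tested.

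Cd163 on the single Pdgfra WT array, outside every comparison, was 4.98, against 4.22 on the next highest array.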

How the results depend on the processing

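No paired analysis was possible because the labels carry no replicate numbers. Counts of member genes lower or higher than EGFRvIII in the mutants were 1 with the host brain covariate, with a block for title range, in titles 41 to 64 alone, and there with the pan-macrophage covariate (an added setting), and 0 without EGFRvIII replicates 4, 5 and 6 or without 4 and 5 (added), against 3. Over all genes these were 497, 310, 80, 100, 54 and 100, and 363 with the pan-macrophage covariate, against 1051. The 7 pair calls were 4 without the filter and with the host brain covariate, 3 with the pan-macrophage covariate, 1 within titles 41 to 64 with it, 54 with array weights, and 0 within titles 41 to 64, within titles 1 to 30 or without EGFRvIII replicates 4 and 5 or 4, 5 and 6. The share of all genes passing over the pairs is not given for these settings. These pair counts therefore cannot be read as a result about the members. Titles 1 to 30 hold no EGFRvIII array and titles 41 to 64 no C450 ins, D842V or E10 del array, so pairs that need them could not be called there. The mutants set against EGFRvIII within titles 41 to 64 were therefore E7 del, E10 del.v2 and V544ins alone. Without the filter the differences are the same and more genes are adjusted over. Within titles 41 to 64 Arg1 in E10 del.v2 had -4.29 and Gpnmb in V544ins 2.80. For the F test array weights called 5 member genes and 10855 genes in all. Weights ran from 0.17 to 9.94. The other F counts were 183 with the host brain covariate, 124 with the pan-macrophage covariate, 14 with the block, 0 within titles 41 to 64, 223 within 1 to 30 and 36 without 4 arrays (E10 del.v2 replicate 2, E10 del replicates 1, 2 and 3), against 68. For the title ranges array weights called 1 member gene and 5429 genes. The other counts were 242 without the filter, 202 with the mean of all probe sets, 3 with host brain, 0 with pan-macrophage, 2064 without those E10 arrays, 2786 in V544ins alone and 1 in E10 del.v2 alone, against 121. Without 1 array at a time, 1 to 4 members and 185 to 2239 genes were called against EGFRvIII (changed by more than 1.5 times without EGFRvIII replicate 1, 4, 5 or 6), 4 to 141 genes by the F test, 1 to 13 pairs and 0 to 1301 genes for the title ranges. Filter, probe set, scaling and prior settings left all 3 member calls in place except Msr1, which missed the threshold without the filter (adjusted p = 0.0539) and with the filter of 9 arrays (adjusted p = 0.0506). Without those E10 arrays Msr1 also missed it (-1.66, adjusted p = 0.104). Both pair calls of E10 del against EGFRvIII were lost in that setting too. Arg1 had -2.08 and Fcgr2b -1.34 (limma, adjusted p = 0.813 and 0.834), though the pair count was again 7. No direction of a called gene turned under any alternative. The cause of the other changes was not tested.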
